A study of Mus musculus with 4 samples.

Results

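The genes described here are Gm597, 1110020A21Rik, Qser1, Nudt18 and Arfgef1, 5 of the 37718 gene rows in the deposited tables. They were chosen by their lower gene counts in Tdrd6-/- cells, on these same samples, so their genotype differences are descriptions and carry no test. The questions put to them were whether their introns lost counts together with their exons, and which exon segments and junctions lost most. The 5 genes hold 66 exon segments, 52 annotated and 1 unannotated exon-exon junctions, and 50 introns.

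Total RNA was sequenced from testis cells of mice 20 days after birth, in 2 Tdrd6+/- and 2 Tdrd6-/- samples, each pooled from at least 4 mice. Nothing in the labels gives the 2 samples of a genotype as separate litters or days. Both genotypes carried the human CD4 surface marker, driven by the Tdrd6 promoter, on which the cells were captured with magnetic beads. The Tdrd6+/- controls thus had 1 working copy of the gene, and the capture enriched diplotene spermatocytes without making them pure. Ribosomal RNA was depleted and the libraries were directional.

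Spermatocytes in diplotene, the late part of the first meiotic prophase, are transcriptionally active cells that store many transcripts for later stages. TDRD6 is a multi-Tudor-domain protein of the chromatoid body, the cytoplasmic RNA granule of male germ cells. In a gene that is spliced, exon reads come mostly from mature RNA and intron reads from RNA that is not yet spliced or keeps the intron. Both were followed for this reason. In Gm597 and 1110020A21Rik the intron was covered about as deeply as the first exon in Tdrd6+/-. Their exon counts thus cannot be taken as mostly mature RNA.

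The 5 genes have unlike roles. Gm597 is a predicted protein-coding gene on chromosome 1 without an established function. 1110020A21Rik, on chromosome 17, is annotated as a long non-coding RNA of a bidirectional promoter, whose 5' part overlaps the phosphatase gene Ppm1b on the opposite strand. Qser1, on chromosome 2, encodes a glutamine- and serine-rich protein that acts with TET1 against DNA methylation. Nudt18, on chromosome 14, encodes a Nudix hydrolase that cleans oxidized guanine nucleotides. Arfgef1, on chromosome 1, encodes BIG1, an exchange factor that switches on ARF GTPases at the Golgi.

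The exon-exon junctions that the results turn on are shown from the GENCODE M21 transcripts of mm10, in the direction of transcription. Lower case marks the last 15 bases of the upstream exon and capitals the first 15 bases of the downstream exon. The first is shown because no fragment was counted on it, the second because it is the one junction of the non-coding RNA. The others are the Qser1 and Arfgef1 junctions with the largest decrease, the Arfgef1 junction with the smallest, and both of Nudt18.
Gm597 junction 1: acaaacatccgaaagGTGGTGAAGATGGGG
1110020A21Rik junction 1: gaagagctcagaaagAGCCATCTTCGACAG
Qser1 junction 3: aaacaaagaaaacagTTTTAGAAGCTCTGC
Arfgef1 junction 10: aagatgcaaattgagGTATTCTTTAAAGAA
Arfgef1 junction 37: atcagtgacagcaggTTTAAAGCTCACGCA
Nudt18 junction 1: ttcctcaacgagcagGATGAGGTGTTGATG
Nudt18 junction 2: tcgctcgaccaacagGCGGAGTTCTCAAGA

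The junctions span the introns at chr1:28778785-28780033 for Gm597, chr17:84955309-84957199 for 1110020A21Rik, chr2:104780261-104786519 for Qser1, chr1:10189679-10194256 and chr1:10138997-10140466 for Arfgef1, and chr14:70578111-70578911 and chr14:70579126-70579333 for Nudt18. All flanks shown are coding except those of 1110020A21Rik. Nudt18 lies on the plus strand and the other 4 genes on the minus strand.

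RefSeq promoter windows of GRCm38.p6, taken as the 250 bases before an annotated start, were at hand for Gm597, for Qser1 and for 2 starts of 1110020A21Rik. They were searched on both strands for TAACNG, TGACGTCA and TATAAA, which were found in 19.8%, 1.55% and 12.4% of 32851 promoter windows. Among the 4 windows of these genes there was a single match, TGACGTCA in the window of the downstream start of 1110020A21Rik, beginning 237 bases upstream of that start. The motif lies at chr17:84957653-84957660, within the first exon of the longer transcript, and is shown in capitals in its 30-base surrounding on the minus strand (chr17:84957642-84957671).
1110020A21Rik promoter: gccctaactccTGACGTCAccgacctgccc

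Depth was 26454326 to 31388750 counts on genes and 9603669 to 13937818 counts on introns per sample. Intron counts per gene count fell between 0.306 and 0.527, lowest in Tdrd6-/- 2 and highest in Tdrd6+/- 1, so the intron changes of each gene below are given with the scaling of the intron table and, after it, with that of the gene table. The Tdrd6 gene itself had 33220 and 39322 counts in Tdrd6+/- but only 359 and 400 in Tdrd6-/-, a log2 change of -6.81 (SE 0.170), in the direction of the labels. The 5 late spermatocyte markers (Sycp1, Sycp3, Piwil1, Hspa2, Ccna1) summed to between 3594 and 3765 CPM (counts divided by the library size after TMM scaling) in every sample. Markers of spermatogonia summed to 22.5 to 31.2 CPM, of Sertoli cells to 37.9 to 48.5, of Leydig cells to 17.1 to 22.1, of peritubular cells to 2.63 to 3.60, and of blood cells to 0.822 to 1.37. Insl3 among the Leydig markers shares its row with an overlapping gene. None of the markers of these other cells that could be tested was called in either direction, and of the 5 spermatocyte markers 1 was called lower and 1 higher. Mean CPM of Sycp1 was 132 in Tdrd6+/- and 199 in Tdrd6-/-, while that of Piwil1 was 1.02e+03 and 749. The steady sum of the spermatocyte markers, most of it from Hspa2, thus covers changes in opposite directions. It does not show that spermatocyte content was equal. The 6 round spermatid markers summed to 5.96 and 8.44 CPM in Tdrd6+/- and to 13.0 and 11.0 in Tdrd6-/-, with Prm1 at 0 in both Tdrd6+/- samples, and their part in the results was not tested. In such bulk samples fewer cells of a type and less RNA per cell cannot be told apart.

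All 5 genes had lower gene counts in both Tdrd6-/- samples than in both Tdrd6+/- samples. Gm597 lost nearly all of its counts, and the other 4 kept between 30.1% and 43.7% of the Tdrd6+/- mean. All 5 were called lower in edgeR's quasi-likelihood test with the false discovery rate (FDR) set to 0.1, where 3.78% of the 16555 genes tested were called lower. In 23.4% of the genes both Tdrd6-/- samples lay below both Tdrd6+/- samples. Nothing is read from either count, since the genes were selected on this difference.

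Gm597 had 276 and 264 gene counts in Tdrd6+/- and no more than 23 and 19 in Tdrd6-/-. That was 10.5 and 9.48 CPM against 0.727 and 0.594, a decrease to 6.60% of the Tdrd6+/- mean. The groups stood far apart, with a fitted log2 change of -3.91 (SE 0.292, 2 samples per genotype), and only Tdrd6 had a lower fitted change among all genes tested.

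1110020A21Rik had 525 and 629 gene counts in Tdrd6+/- and 210 and 198 in Tdrd6-/-. On the CPM scale this was 20.0 and 22.6 against 6.64 and 6.19, a log2 change of -1.73 (SE 0.199). Both Tdrd6-/- samples held about the same level, well under the controls.

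Qser1 had 4223 and 3951 gene counts in Tdrd6+/- and 1971 and 1507 in Tdrd6-/-. Its CPM went from 161 and 142 to 62.3 and 47.1, a log2 change of -1.47 (SE 0.150). Within each genotype the samples differed far less than the genotypes did.

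Nudt18 had 2248 and 3219 gene counts in Tdrd6+/- and 1265 and 1154 in Tdrd6-/-. Its CPM was 85.8 and 116 in the controls and 40.0 and 36.1 in Tdrd6-/-, a log2 change of -1.41 (SE 0.155). Here the 2 control samples spread most, with Tdrd6+/- 2 above Tdrd6+/- 1, and the groups still did not overlap.

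Arfgef1 had the highest counts of the 5, 7815 and 8363 in Tdrd6+/- and 4659 and 3663 in Tdrd6-/-. Its CPM was 298 and 300 in the controls and 147 and 114 in Tdrd6-/-, a log2 change of -1.19 (SE 0.140), the smallest decrease of the 5.

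Levels were compared per kilobase of the exon segments that were counted, and for Arfgef1, whose segments have no positions, per kilobase of all its annotated exons. In Tdrd6+/- Arfgef1 had 26.4 ± 0.112 CPM per kb (SD, n = 2), Nudt18 25.6 ± 5.35, 1110020A21Rik 25.0 ± 2.10, Qser1 16.8 ± 1.52 and Gm597 3.47 ± 0.260. The samples of Arfgef1, Nudt18 and 1110020A21Rik overlapped, while Qser1 and then Gm597 lay below them. In Tdrd6-/- the order was the same, with 11.6 ± 2.05, 9.69 ± 0.711, 7.52 ± 0.377, 6.05 ± 1.19 and 0.229 ± 0.0327 CPM per kb. Here the samples of Arfgef1 and Nudt18 overlapped and the other neighbours in the order did not.

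**Figure D1:**
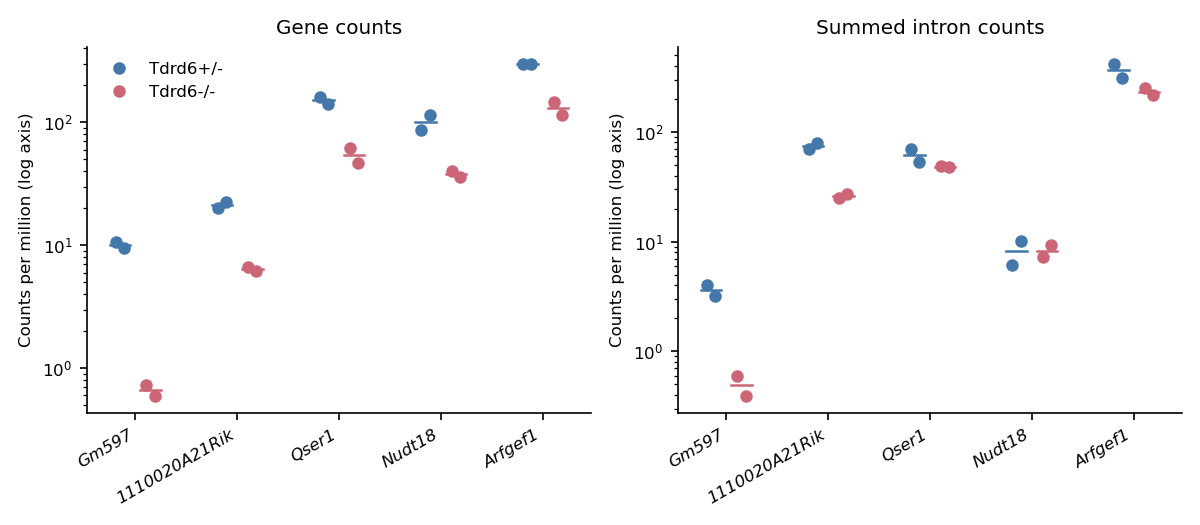
CPM of each gene (left) and of its summed introns (right) on log axes, with 1 point per sample, a short line at the mean of the 2 samples, Tdrd6+/- in blue and Tdrd6-/- in red. Gene levels do not overlap between the genotypes for any of the 5 genes, while the intron levels of Nudt18 overlap.

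The introns followed the genes to very different degrees. Summed over each gene, intron counts were lower to nearly the same degree as gene counts in 1110020A21Rik, to a large part in Gm597, in part in Arfgef1 and to a smaller part in Qser1, and they overlapped between the genotypes in Nudt18. Over the 5 genes the median log2 change was -0.65 for introns and -1.47 for genes, beside medians of 0.07 over 15025 genes with introns tested and 0.01 over 16555 genes. Both Tdrd6-/- samples lay below both Tdrd6+/- samples for the summed introns of 4 of the 5 genes, against 21.4% of all genes tested.

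1110020A21Rik had 888 and 948 intron counts in Tdrd6+/- and 335 and 276 in Tdrd6-/-, more than its gene counts in every sample. The log2 change of its intron was -1.52 (SE 0.224), or -1.82 with the scaling of the gene table, beside -1.73 for the gene. The intron of this RNA thus lost about as much as its exons.

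Gm597 had 51 and 39 intron counts in Tdrd6+/- and 8 and 4 in Tdrd6-/-, a log2 change of -2.83 (SE 0.510), or -3.12 with the scaling of the gene table. Few fragments stand behind the Tdrd6-/- values, and the groups did not overlap. No fragment was counted on the junction across this intron in any sample. The counts thus do not show that it is spliced out.

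Arfgef1 had 5290 and 3778 intron counts in Tdrd6+/- and 3395 and 2198 in Tdrd6-/-. The CPM of its introns was 419 and 312 against 251 and 215, a log2 change of -0.65 (SE 0.213), or -0.94 with the scaling of the gene table. Without Tdrd6+/- 1 the change was -0.43. Its 2 control samples differed by more in introns than in gene counts, but both stayed above the Tdrd6-/- samples.

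Qser1 had 877 and 645 intron counts in Tdrd6+/- and 660 and 488 in Tdrd6-/-. The CPM of its introns was 69.4 and 53.3 against 48.8 and 47.7, a log2 change of -0.35 (SE 0.217) beside a gene change of -1.47. It was -0.65 with the scaling of the gene table, and -0.15 without Tdrd6+/- 1 or -0.54 without Tdrd6+/- 2. The gap between the genotypes was no wider than the gap between the control samples.

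Nudt18 had 77 and 123 intron counts in Tdrd6+/- and 97 and 95 in Tdrd6-/-, and the groups overlapped. The log2 change of its introns was 0.01 (SE 0.303), or -0.29 with the scaling of the gene table, and -0.32 to 0.41 when each sample was left out, beside a gene change of -1.41. Most of these intron counts lie on its first intron, part of which can be exon in other transcripts.

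In a joint fit of gene and intron counts, the log2 change of the introns minus that of the gene was 1.42 (SE 0.211) for Nudt18, 1.14 (SE 0.166) for Qser1, 1.05 (SE 0.547) for Gm597, 0.56 (SE 0.181) for Arfgef1 and 0.21 (SE 0.177) for 1110020A21Rik. A positive value means that introns lost less than the gene. For comparison the median of this difference over 13030 genes was 0.06. With the scaling of the gene table applied to the introns as well, the differences were 1.13 (SE 0.323) for Nudt18, 0.84 (SE 0.285) for Qser1, 0.80 (SE 0.595) for Gm597, 0.26 (SE 0.269) for Arfgef1 and -0.10 (SE 0.300) for 1110020A21Rik, so the direction of 1110020A21Rik depends on the scaling while the other 4 genes keep theirs.

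The same shift is visible without a fit in the intron counts per 100 gene counts. For Nudt18 these were 3.43 and 3.82 in Tdrd6+/- and 7.67 and 8.23 in Tdrd6-/-. For Qser1 they were 20.8 and 16.3 against 33.5 and 32.4. In both genes the Tdrd6-/- samples lay above the controls, although the totals of the intron table relative to the gene table were lowest in Tdrd6-/- 2. For Gm597 they were 18.5 and 14.8 against 34.8 and 21.1, and for Arfgef1 67.7 and 45.2 against 72.9 and 60.0. The Arfgef1 samples overlap in this ratio. For 1110020A21Rik the ratio was 169 and 151 against 160 and 139, again with overlap.

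**Figure D2:**
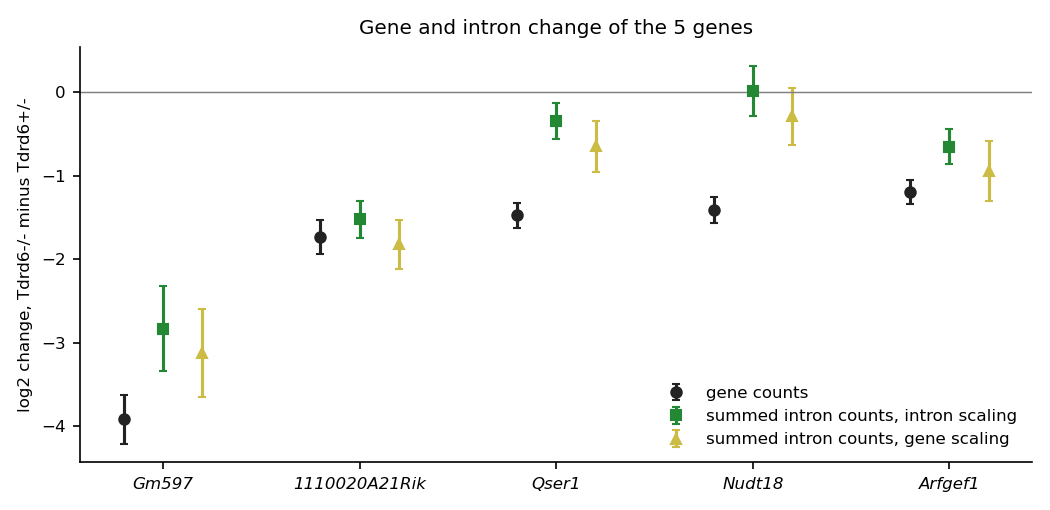
log2 change in Tdrd6-/- relative to Tdrd6+/- of gene counts (black circles) and of summed intron counts with the scaling of the intron table (green squares) or of the gene table (yellow triangles), with bars of 1 SE. Intron changes lie close to the gene change in 1110020A21Rik and nearest to 0 in Nudt18.

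Among single features, 64 of the 66 exon segments and 50 of the 52 annotated junctions had both Tdrd6-/- samples below both Tdrd6+/- samples in CPM, where 26.8% of the 275160 exon segments and junctions tested did. Of the 50 introns, 34 were lower in this way and 1 was higher, where 20.9% of the 99126 single introns tested were lower. Of the 34, 27 belong to Arfgef1, which has 35 introns, and 5 to Qser1, which has 11. Gm597 and 1110020A21Rik gave 1 each and Nudt18 none. Introns of 1 gene in the same samples are not independent, so nothing is read from the pooled intron count. After a filter on low counts 63 exon segments, 49 junctions and 48 introns entered the fits, and the changes below come from these. Of these, 62 exon segments, 48 junctions and 34 introns were lower in this way. Nothing is read from the counts of exon segments and junctions, since they belong to the gene counts on which the genes were selected.

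Gm597 consists of 2 exons on the minus strand (chr1:28776117-28780252), and the numbering of segments follows the chromosome, so that segment E001 is the last exon. E001 (chr1:28776117-28778784, mostly coding) had 269 and 252 counts in Tdrd6+/- and 20 and 18 in Tdrd6-/-, and it held 96.5% of the gene counts in Tdrd6+/-. Its log2 change was -4.01 (SE 0.257). The first exon, E002 (chr1:28780034-28780252), had 7 and 12 counts against 3 and 1, too few to be fitted. The junction between them, whose sequence is the first shown above, had 0 counts in all 4 samples, which allows up to 3 fragments per sample for counting error alone. In Tdrd6+/- the intron held 36.0 counts per kb and the first exon 43.4, so the 2 were covered to a similar depth, while the last exon held 97.6 counts per kb.

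1110020A21Rik was placed on the transcript with exons at chr17:84954967-84955308 and chr17:84957200-84957710. On its last exon, E001, the counts were 347 and 360 in Tdrd6+/- and 110 and 106 in Tdrd6-/-, a log2 change of -1.95 (SE 0.194). Its first exon, E002, had 216 and 327 against 114 and 104, a log2 change of -1.54 (SE 0.203). The junction had 31 and 47 against 13 and 9 counts, a log2 change of -2.04 (SE 0.408), and lost as much as the last exon within its error. In Tdrd6+/- the intron was covered by 485 counts per kb, the first exon by 531 and the last exon by 1034. The 5' part of the gene overlaps Ppm1b on the other strand, and whether the counting used the strand is not given in the sources used here.

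Qser1 has 12 exon segments, which match the 12 exons of its transcript in number, and E012 is the first exon. The long exon E010 at position 3 from the 5' end (chr2:104786520-104790197, all coding), lost most. It had 2031 and 2144 counts in Tdrd6+/- and 849 and 602 in Tdrd6-/-, a log2 change of -1.76 (SE 0.173), and its share of the gene counts was 51.2% ± 4.36 (SD, n = 2) in Tdrd6+/- and 41.5% ± 2.21 in Tdrd6-/-. E003 had 186 and 173 counts against 86 and 67 (log2 change -1.47, SE 0.218), and E002 had 135 and 130 against 62 and 54 (-1.43, SE 0.235). The 3 segments with the smallest losses were E006 with -1.15 (SE 0.182), E011 with -0.78 (SE 0.452) and the first exon E012 with -0.62 (SE 0.582). The last pair rest on few fragments, with 10 and 11 counts against 12 and 4 on E012.

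The 9 Qser1 junctions that were fitted changed nearly alike. Junction 3 from the 5' end (J021), which joins E010 to E009, had 96 and 82 counts in Tdrd6+/- and 33 and 38 in Tdrd6-/-, a log2 change of -1.56 (SE 0.274). Next came J015 with -1.42 (SE 0.275) and J020 with -1.36 (SE 0.284). At the other end stood J018 with -1.24 (SE 0.246), J014 with -1.23 (SE 0.286) and J017 with -1.17 (SE 0.266). The intervals of 1 SE around these values all overlapped. The 2 most upstream junctions were counted far less often than the rest already in Tdrd6+/-, with 8 and 15 counts on J022 and 4 and 7 on J023 where the other 9 had 62 to 120.

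Most Qser1 introns changed less than its exons. Of 10 introns fitted, 9 had a negative change, with a median of -0.34. The lowest were intron 008 with 41 and 22 counts against 17 and 11 (log2 change -1.06, SE 0.422), intron 002 with -0.83 (SE 0.417) and intron 001 with -0.49 (SE 0.466). The highest were intron 010 with -0.18 (SE 0.414), intron 009 with -0.14 (SE 0.272) and intron 003 with 23 and 33 counts against 27 and 30 (0.14, SE 0.376). Intron 009, beside E010, thus had 94 and 76 counts in Tdrd6+/- and 79 and 64 in Tdrd6-/-, while E010 itself lost most among the exons. Intron 011, the first and longest (21305 bases), carried 33.1% of the intron counts in Tdrd6+/- and 34.7% in Tdrd6-/-.

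**Figure D3:**
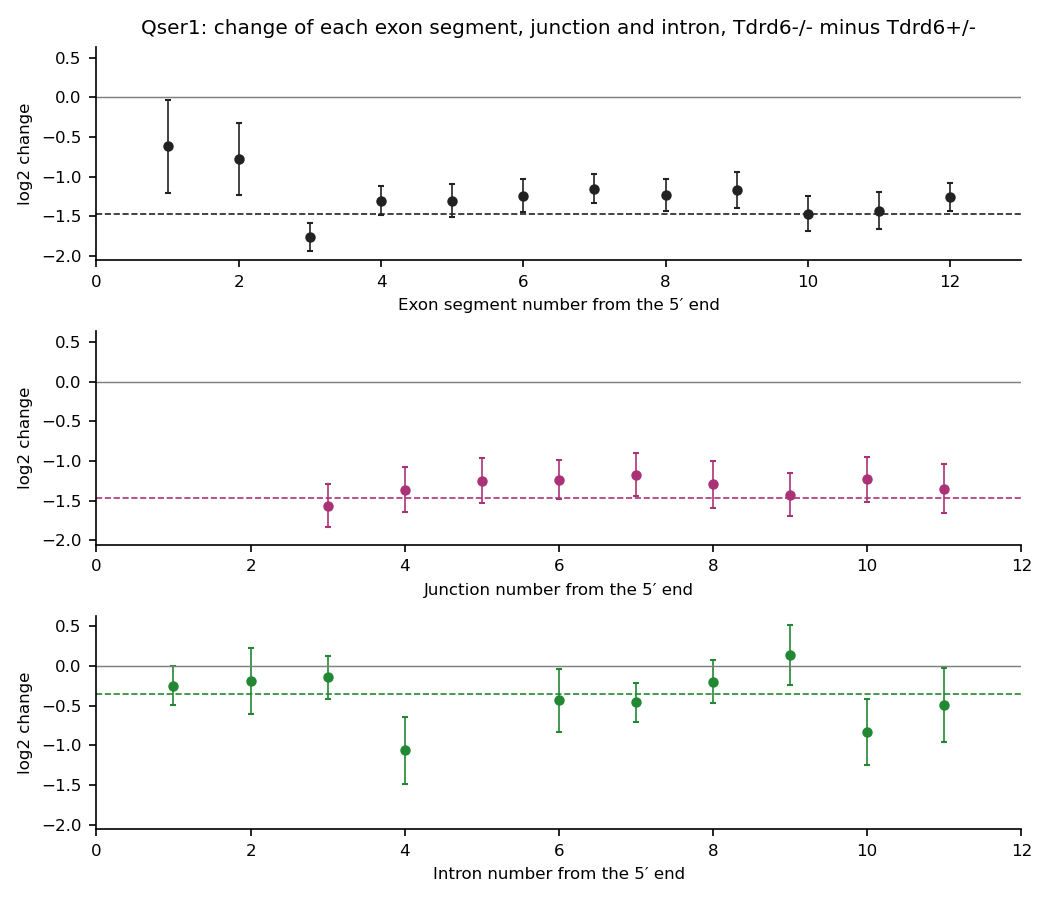
log2 change of each Qser1 exon segment (top), junction (middle) and intron (bottom) that was fitted and had a mean of at least 10 counts in Tdrd6+/-, in order from the 5' end, with bars of 1 SE and a dashed line at the change of the gene or of the summed introns. E010, at position 3, lies lowest among the exons, and most introns lie closer to 0 than the exons and junctions do.

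Nudt18 was placed on the transcript with 3 exons, of which the last, E003 (chr14:70579334-70582571), carries most counts. E003 had 2066 and 2934 counts in Tdrd6+/- and 1100 and 1031 in Tdrd6-/-, a log2 change of -1.46 (SE 0.170). E001 had 146 and 233 against 115 and 94 (-1.09, SE 0.214), and E002 349 and 482 against 235 and 226 (-1.08, SE 0.181). The last exon thus lost most, although its interval of 1 SE touched that of E001.

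Both spliced junctions of Nudt18 were lower together with the exons. Junction 1 had 61 and 113 counts in Tdrd6+/- and 53 and 40 in Tdrd6-/-, a log2 change of -1.13 (SE 0.273). Junction 2 had 145 and 181 against 74 and 79, a log2 change of -1.32 (SE 0.219). The introns they span did not follow: intron 001 had 56 and 102 counts against 75 and 80 (0.08, SE 0.295) and intron 002 had 21 and 21 against 22 and 15 (-0.09, SE 0.422). Intron 001, with 77.8% of the intron counts in Tdrd6+/-, starts elsewhere in other GENCODE M21 transcripts. Part of it can thus be exon, and how many of its counts come from such sequence was not tested. One unannotated junction, the only one among the 5 genes, had 7 and 13 counts in Tdrd6+/- and 9 and 10 in Tdrd6-/-, with the groups overlapping.

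Arfgef1 has 47 exon segments, which could not be matched to exons and are given by order, 37 junctions that match the 38 exons of its full-length transcript, and 35 introns. All 45 segments, 37 junctions and 34 introns that were fitted had a negative change. The median was -1.29 for exon segments, -1.27 for junctions and -0.59 for introns.

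The largest losses among Arfgef1 exon segments lay side by side near the 5' end. They were E038 with 547 and 569 counts against 215 and 192 (log2 change -1.69, SE 0.179), E039 with 470 and 512 against 199 and 180 (-1.61, SE 0.181) and E037 with 456 and 487 against 220 and 148 (-1.59, SE 0.187). The smallest losses were those of 3 weakly counted segments in the 3' part of the gene, E015 with -0.68 (SE 0.282), E017 with -0.60 (SE 0.347) and E013 with 26 and 21 counts against 26 and 19 (-0.30, SE 0.392). E013, E015 and E017 had at most 66 counts in any sample, whereas E037 to E039 had at least 456 in the controls.

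The junctions, which could be placed, showed a like order. Junction 10 (J075) had 139 and 160 counts in Tdrd6+/- and 53 and 45 in Tdrd6-/-, a log2 change of -1.84 (SE 0.237), followed by J081 with -1.69 (SE 0.264) and J076, the neighbour of J075, with -1.62 (SE 0.221). The smallest changes were those of J066 with -0.86 (SE 0.231), J083 with -0.86 (SE 0.321) and the last junction, J048, with 126 and 106 against 92 and 74 counts (-0.72, SE 0.229). The intervals of 1 SE around J075 and J048 did not overlap. J083 lies close to the 5' end, so the small changes were not confined to the 3' end. From the 5' end, the median change was -1.35 over the first 15 exon segments, -1.31 over the next 15 and -0.99 over the last 15. For junctions it was -1.48 over the first 12, -1.38 over the next 13 and -1.04 over the last 12. Spearman's rho of the change with the position from the 5' end was 0.47 over 45 exon segments and 0.45 over 37 junctions, which share the same 4 libraries and overlapping fragments.

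Arfgef1 introns showed no such order, with a rho of 0.06 over 34 introns and medians of -0.46 over the first 11, -0.78 over the next 12 and -0.49 over the last 11. The lowest were 3 introns with few counts, intron 013 with 42 and 35 against 20 and 10 (-1.26, SE 0.394), intron 008 with -1.25 (SE 0.449) and intron 019 with -1.25 (SE 0.446). The highest lay at the 3' end of the gene, intron 003 with -0.29 (SE 0.394), intron 001 with -0.26 (SE 0.291) and intron 004 with 117 and 72 counts against 83 and 69 (-0.20, SE 0.274).

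**Figure D4:**
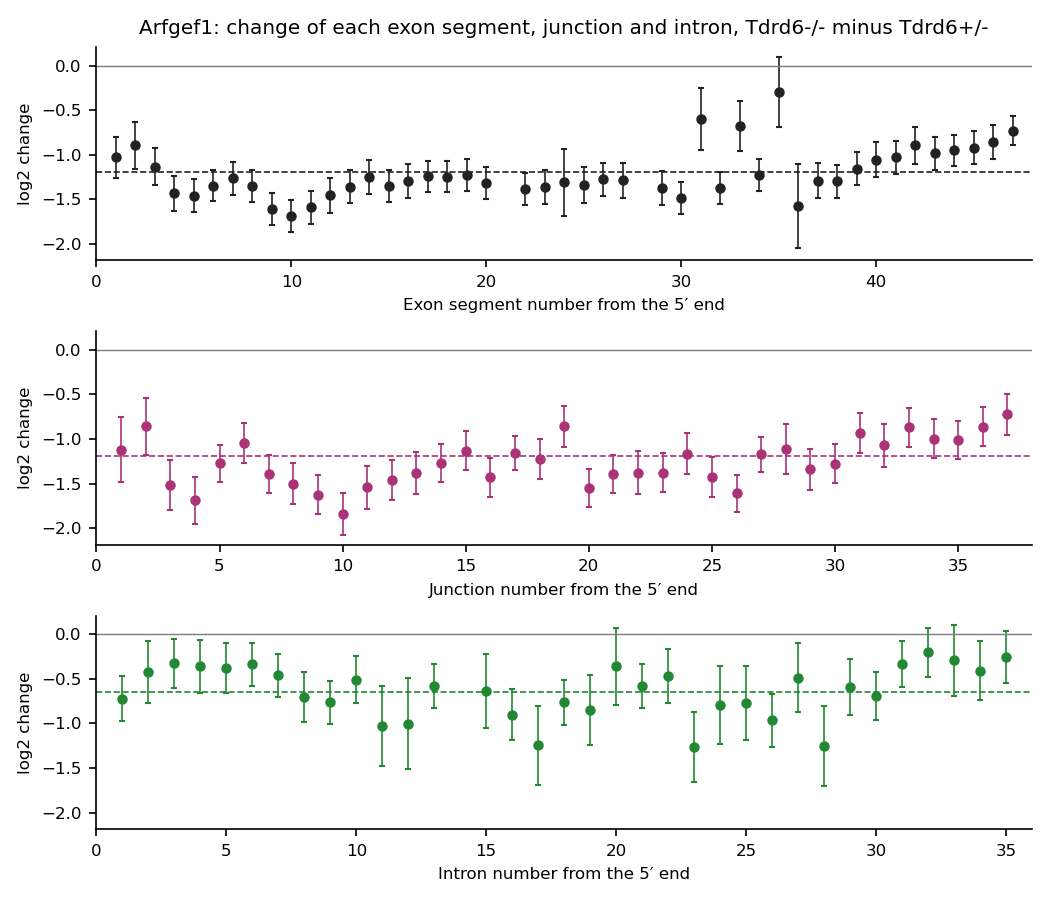
log2 change of each Arfgef1 exon segment (top), junction (middle) and intron (bottom) that was fitted and had a mean of at least 10 counts in Tdrd6+/-, in order from the 5' end, with bars of 1 SE and a dashed line at the change of the gene or of the summed introns. Exon segments and junctions lose most around position 10 and least towards the 3' end.

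The test of usage asks whether an exon segment or junction changed differently from the rest of its gene. For an intron it asks whether it changed differently from the other introns of its gene. Of the 102 exon segments and junctions of these genes with an adjusted p, 2 were called at FDR 0.1, beside 0.221% of all 147710. They were E010 of Qser1, with a usage log2 change of -0.56 (SE 0.133), and the last segment of Arfgef1, E001, with 0.55 (SE 0.132). E001 of Arfgef1 is outside the rule for named segments and is named because it was called. It had 1014 and 920 counts in Tdrd6+/- and 724 and 652 in Tdrd6-/-, 12.0% ± 1.40 and 16.7% ± 1.60 of the gene counts. Both calls remained with the replicate number as a block and without Tdrd6+/- 1, and both were lost without Tdrd6+/- 2, without Tdrd6-/- 1, without Tdrd6-/- 2 and with edgeR's usage test. No intron of Qser1, Nudt18 or Arfgef1 was called by the likelihood ratio test fitted with DESeq2, where 1.94% of 28903 introns were. Since introns are compared with each other, this test cannot show whether they changed differently from the gene counts. The sole introns of Gm597 and 1110020A21Rik have no other intron to be compared with and did not enter it. Of the 48 introns that entered, only 14 had an adjusted p after filtering on the mean. None of the 48 had an unadjusted p under 0.05, and edgeR's usage test called none either.

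The genes on both sides of each of the 5, which had not been chosen by their values, were tested with edgeR's quasi-likelihood test with adjustment over all genes. Of 11 neighbouring or overlapping genes 2 were called, both lower, where 4.8% of all genes were called in either direction. Gm5697, a processed pseudogene 20.0 kb from Gm597 on the same strand, had 220 and 165 counts in Tdrd6+/- and 127 and 69 in Tdrd6-/-, a log2 change of -1.21 (SE 0.288, adjusted p = 0.0195). As a processed pseudogene it can share reads with its parent gene, so its counts are uncertain. Fam160b2, whose 3' end faces that of Nudt18 at a distance of 608 bases, had 2486 and 3331 counts against 2523 and 2334, a log2 change of -0.49 (SE 0.143, adjusted p = 0.0654). In CPM both Tdrd6-/- samples were below both controls for both genes.

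Both calls were lost when some single samples were left out, while the changes kept their direction. For Gm5697 the log2 change was -0.93 without Tdrd6+/- 1 (edgeR adjusted p = 0.209) and -0.82 without Tdrd6-/- 2 (0.324). For Fam160b2 it was -0.31 without Tdrd6+/- 2 (edgeR adjusted p = 0.250), -0.56 without Tdrd6-/- 1 (0.143) and -0.42 without Tdrd6-/- 2 (0.595). With all samples and no filter on low counts the changes were -1.19 for Gm5697 and -0.47 for Fam160b2, and neither was called (0.326 and 0.400).

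Ppm1b, which overlaps 1110020A21Rik on the opposite strand, had 3748 and 3601 counts in Tdrd6+/- and 3421 and 3643 in Tdrd6-/-, a log2 change of -0.30 (SE 0.131, edgeR adjusted p = 0.299). Cspp1, a centrosome gene whose end lies 803 bases from that of Arfgef1, had 3931 and 3494 against 3621 and 3182, a log2 change of -0.37 (SE 0.138, edgeR adjusted p = 0.195). It was called with the replicate block (adjusted p = 0.0943 in edgeR) and without Tdrd6+/- 2 (0.0633). The remaining 7, Gm7846, Pin1rt1, Gm13886, Hr, A830018L16Rik, Lrpprc and Slc3a1, changed by between -0.63 and 0.30 and were not called. Several of them lie far away: A830018L16Rik, which shares its row with another gene, at 1181 kb, Gm7846 at 195 kb, Lrpprc at 126 kb and Slc3a1 at 70.7 kb. Pin1rt1 lies at 38.4 kb, Hr at 4.09 kb and Gm13886 at 3.42 kb.

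**Figure D5:**
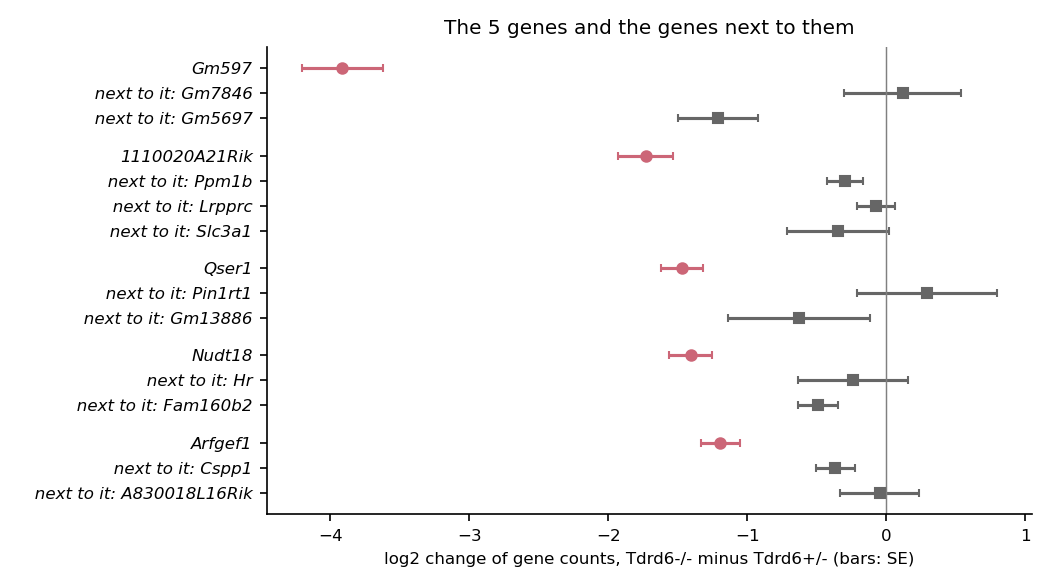
log2 change of gene counts in Tdrd6-/- relative to Tdrd6+/- for the 5 genes (red circles) and for the nearest tested genes on each side, at any distance, or overlapping them (grey squares), with bars of 1 SE. Each of the 5 genes lies below all of its neighbours. Nothing is read from this, since the 5 were selected for their lower counts.

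Relatives and partners of Arfgef1, Nudt18 and Qser1 were taken from 3 lists with 52 genes, namely ARF GTPases with their exchange factors, other Nudix hydrolases and genes of DNA methylation. Of these 47 were tested and 4 were called, all lower, or 8.51% beside 4.8% of all genes. Of 19 tested ARF GTPases and their exchange factors 2 were called lower. Gbf1, the exchange factor of the early Golgi, had 409 and 531 CPM in Tdrd6+/- and 329 and 248 in Tdrd6-/-, a log2 change of -0.70 (SE 0.152, edgeR adjusted p = 0.0102). Iqsec1, an exchange factor for ARF6, had 45.9 and 62.2 CPM against 33.2 and 29.4, a log2 change of -0.79 (SE 0.165, edgeR adjusted p = 0.00803). The median change of the list was -0.04, beside 0.01 over all genes.

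Of 9 genes around QSER1 in DNA methylation 2 were called lower. Dnmt1, the maintenance methyltransferase, had 168 and 156 CPM in Tdrd6+/- and 121 and 114 in Tdrd6-/-, a log2 change of -0.47 (SE 0.130, edgeR adjusted p = 0.0492). Uhrf1, which brings DNMT1 to replicated DNA, had 185 and 191 CPM against 136 and 135, a log2 change of -0.47 (SE 0.128, edgeR adjusted p = 0.0421). None of 19 tested Nudix hydrolases was called by edgeR or by DESeq2, and none had an unadjusted p under 0.05 in edgeR. Without Tdrd6+/- 2 the decapping enzyme gene Dcp2 was called lower, with a log2 change of -0.57 (edgeR adjusted p = 0.0547) against -0.29 with all samples.

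All 4 calls were lost without Tdrd6-/- 2, while the log2 changes were -0.50 for Gbf1 (edgeR adjusted p = 0.305), -0.69 for Iqsec1 (0.128), -0.42 for Dnmt1 (0.567) and -0.46 for Uhrf1 (0.452). Over all genes 257 were called in that setting, against 794 with all samples. Without Tdrd6-/- 1 the changes were -0.51 for Dnmt1 (edgeR adjusted p = 0.185) and -0.48 for Uhrf1 (0.230), and without Tdrd6+/- 1 it was -0.40 for Dnmt1 (0.150). Without a filter on low counts the 4 calls were lost with changes of -0.68 for Gbf1 (edgeR adjusted p = 0.294), -0.76 for Iqsec1 (0.241), -0.44 for Dnmt1 (0.294) and -0.45 for Uhrf1 (0.267). In the other direction, Arfgef3 was called without Tdrd6-/- 1 (-0.69, edgeR adjusted p = 0.0876, against -0.45 and 0.200 with all samples).

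The genes whose profile over the 4 samples was nearest to the mean profile of the 5 were found by the Euclidean distance of log2 CPM centred on Tdrd6+/-. Polr2a, the largest subunit of RNA polymerase II, was nearest at a distance of 0.124, with 261 and 256 CPM in Tdrd6+/- and 77.5 and 65.1 in Tdrd6-/-. Supt3, a subunit of the SAGA coactivator complex, followed at 0.353, with 29.5 and 39.6 CPM against 11.0 and 10.4. Of the 5 genes themselves 1110020A21Rik was nearest to their mean, at 0.214, and Gm597 farthest, at 1.99. These distances are over 4 samples and describe likeness in level only.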

How the data were processed

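Paired-end fragments were demultiplexed with bcl2fastq 1.8.4 according to the submitters' processing notes, aligned by the authors to mm10 with GSNAP and annotated with Ensembl. The authors deposited counts per sample that were not normalized, in 1 table for genes, exon segments and junctions and 1 for introns. Since 1 fragment may fall on more than 1 segment, segment counts of a gene overlap. The counting program, its filters and its use of strand are not given in the sources used here.

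Positions came from GENCODE M21 of mm10. The numbering follows the chromosome: log intron length and log count correlated at 0.87 in Qser1 and 0.88 in Arfgef1 in that order, and at -0.55 and -0.02 in reverse. Abundance was fitted with edgeR 4.0.16 (quasi-likelihood test after TMM scaling and filterByExpr, Benjamini-Hochberg adjustment) on all rows of each table in R 4.3.3, with exon segments and junctions scaled as the gene rows. Usage was fitted with the models of DEXSeq and JunctionSeq in DESeq2 1.42.0 on features with at least 10 counts in total. Introns were set against the other introns of their gene, exon segments and junctions against the rest of the gene count. The FDR was 0.1. SEs came from the fitted change and its F statistic. The scripts were tested on simulated data. The p-values rest on the spread between 2 samples per genotype, estimated with information shared over all rows of a fit. This spread may be partly technical. Each sample was a pool of mice, so the spread between single mice was not measured.

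The 5 genes, the gene lists and the tests were chosen with earlier results of these data known. Named segments were the 3 lowest and 3 highest log2 changes of each kind and gene with a mean of at least 10 counts in Tdrd6+/-, or all where fewer than 7 exist, and named list genes were those past the FDR. Neighbours were the nearest tested gene on each side and any overlapping one. Of the genes nearest in profile, 1 is not reported here. Promoters were matched by symbol for 3 of the 5 genes. Alternatives were DESeq2, no filter on low counts, other scalings, edgeR's usage test, the replicate number as a block and leaving out each sample in turn.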

Additional observations from a re-analysis of the deposited data

How the results depend on the processing

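With 2 samples per genotype and 4 to 51 intron counts behind Gm597, depth limits its intron values, and for single segments with fewer than 10 counts no change was fitted. The median gene change of the 5 genes, -1.47, ranged from -1.69 to -1.32 when each sample was left out in turn. The median intron change, -0.65, was -0.94 with the scaling of the gene table and -0.86 to -0.43 when each sample was left out. The median of the intron change minus the gene change, 1.05, was 0.80 with the scaling of the gene table and 0.86 to 1.12 when each sample was left out, and for 1110020A21Rik alone it was -0.10 in place of 0.21 with that scaling. The 1.05 and the 0.80 are the values of Gm597, with SEs of 0.547 and 0.595, whose intron had 8 and 4 counts in Tdrd6-/-. The median change of exon segments and junctions, -1.28, was -1.47 to -1.14 when each sample was left out. Of the 110 single-gene values under an alternative, 105 kept their direction. They include the gene changes, whose direction was largely fixed by the selection of the genes. The other 5 were all in the Nudt18 intron change or in the intron change minus the gene change of 1110020A21Rik. The 2 calls among neighbours and the 4 among list genes became 0 and 0 in edgeR without a filter on low counts, with 3 and 4 genes at an unadjusted p under 0.05, and ranged from 0 to 2 and from 0 to 5 when each sample was left out. Without Tdrd6-/- 2, where both were 0, 2 neighbours and 4 list genes had an unadjusted p under 0.05. The 2 usage calls among exon segments and junctions became 0 with edgeR's usage test and ranged from 0 to 2 when each sample was left out. Over all genes 794 were called, against 75 without a filter and 257 to 1064 when each sample was left out, and the cause was not tested. Usage calls over all introns were 561, against 2 in edgeR's usage test, 882 with the replicate block and 4 to 1168 when each sample was left out, and over all exon segments and junctions 327, against 71 in edgeR's test and 51 to 763.

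The replicate numbers were not stated to pair the samples, and deviations of same-numbered samples correlated at -0.12 over 12347 genes. With the replicate number as a block 1046 genes were called, with 3 neighbours and 4 list genes, and the median gene change of the 5 genes was -1.48, that of introns -0.64, that of their difference 1.04 and that of segments -1.29. A crossed pairing, added after seeing the data, gave 1175 called genes, 2 neighbours and 4 list genes.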
